A study of Mus musculus with 46 samples.

Results

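Microglia sorted from mouse gliomas that had recurred after radiation combined with BLZ945 were compared with microglia sorted after 5 days of the same combination. The comparison rests on the MG libraries, MG being the submitters' name for microglia: 4 recurrent libraries and 3 libraries at 5 days, which makes 7 of the 46 RNA-seq libraries in the series, and the 7 libraries come from 7 mice. Recurrence libraries came from mice 67169, 67543, 67947 and 68362, and the libraries at 5 days from mice 65696, 65971 and 67537. Every mouse, control mice included, was an nTVA animal with Ink4a/Arf KO/KO (nTVA mice carry the receptor for RCAS viruses, which in this line is under the nestin promoter, and Ink4a/Arf is the Cdkn2a tumour-suppressor locus). At 5 to 6 weeks of age the mice received DF1 cells, a chicken fibroblast line, that shed RCAS-PDGFB-HA virus into the right frontal cortex, so the tumours are driven by the growth factor PDGFB. IR stands for radiation and BLZ945 is an inhibitor of CSF1R, the receptor that microglia and macrophages need to survive; the labels give neither the radiation dose nor the time from treatment to recurrence. MG were gated as Cd45+ Cd11b+ Ly6c- Ly6g- Cd49d- cells after myelin removal, and the Cd49d+ cells of the same mice were kept as BMDM (bone marrow-derived macrophages). Other sets were used where the comparison called for them, namely recurrence (4 mice) and 5 days (2 mice) of IR alone, recurrence (2 mice) and 5 days (4 mice) of BLZ945 alone, MG from 4 vehicle-treated mice, and the BMDM of the 7 mice.

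Microglia are the resident macrophages of the brain, and they can renew themselves by division without help from the blood. CSF1R signalling keeps them alive, and its inhibition in gliomas driven by PDGFB is known to change the state of macrophages more than to remove them. Radiation breaks DNA and activates p53, which induces the cell cycle inhibitor Cdkn1a and other targets; a cell that enters mitosis switches on cyclins, Aurora kinases and spindle genes as a block.

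Total counts were 8402857 to 11816214 in 6 of the 7 libraries and 3007379 in the 5-day library of mouse 65971, the lowest of all 46 (highest 16993474). That library detected 9181 genes with at least 10 counts, against 11418 to 12751 in the other 6, and its log2 CPM (CPM, the count scaled by library size and TMM) correlated with theirs at Pearson's r of 0.528 to 0.615 across genes, against 0.834 to 0.964 among the other 6. Results are therefore given with and without it. Itga4, which encodes Cd49d, was at 1.14 to 1.98 log2 CPM in recurrent MG and 1.76 to 2.95 in 5-day MG, against 5.53 to 6.77 in recurrent BMDM and 6.58 to 6.76 in 5-day BMDM. Ly6c2, a gene of the Ly6c marker that the MG gate excludes, was at -1.53 to 2.12 log2 CPM in recurrent MG and -3.53 to -0.22 in 5-day MG, against 1.10 to 3.58 in recurrent BMDM and 2.39 to 3.38 in 5-day BMDM, so recurrent MG of mouse 67947 (2.12) lay within the BMDM range. Reads were still assigned to Cdkn2a, the locus deleted in every group (0.17 to 1.34 log2 CPM at recurrence and -3.53 to -0.95 at 5 days), and gene counts do not say which part of it they cover. A second measure separated the groups completely. The difference in log2 CPM between Malat1, a nuclear long non-coding RNA, and Lars2, a gene for a mitochondrial tRNA synthetase, was -6.31 to -4.03 in the 4 recurrent libraries and 2.62 to 4.60 in the 3 libraries at 5 days. It was below 0 in every recurrence library of any treatment and in vehicle mice 41 and 78 (-3.18 and -4.47), and above 0 in every 5-day library and in vehicle mice 65966 and 65967 (4.22 and 2.73). A term for it in the fit is therefore reported beside the main gene groups. Lars2 itself was at 12.79 to 15.22 log2 CPM in recurrent MG and 6.23 to 8.54 in 5-day MG. Rn45s, a ribosomal RNA entry, was at 12.12 to 14.86 in recurrent MG and 8.29 to 11.20 in 5-day MG. Whether reads assigned to Lars2 come from ribosomal RNA was not tested. Y-linked transcripts marked 3 recurrent libraries and mouse 65971, while Xist marked mouse 67947 and the other 5-day libraries.

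Of 14534 genes tested, 4077 differed at an adjusted p below 0.05 by edgeR's quasi-likelihood test with Benjamini-Hochberg adjustment, which is 28.1% of them. Expression was higher at recurrence for 1665 genes (11.5%) and lower for 2412 (16.6%), and the median log2 fold change of all genes was -0.08. All log2 fold changes below are recurrence over 5 days unless another pair is named. Without mouse 65971, 3599 of 14118 genes passed (25.5%), 1679 higher (11.9%) and 1920 lower (13.6%). Shared between both fits were 2453 genes, made up of 1322 rises and 1131 falls, with 0 of opposite sign. Many falls leaned on that library: 1821 of the 2412 falls had their highest 5-day level in it, and 27 of 33 olfactory receptor (Olfr) genes tested were called lower with it, against 5 without it. With the Malat1 minus Lars2 term, 158 genes passed, 87 higher and 71 lower. Because this measure separated the groups completely, the fit can hardly tell its term from the comparison itself. A call lost under the term, here and below, therefore does not show that a change was absent. The balance of directions depended on the fit: only the 2 groups compared gave 995 genes, 623 higher and 372 lower, and a term for brain cell lists gave 3071 higher and 2584 lower. The recurrent and 5-day libraries did not overlap for 4211 of the 14534 genes tested and for 2927 of the 4077 called, against which each statement on overlap below is to be read.

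**Figure D1:**
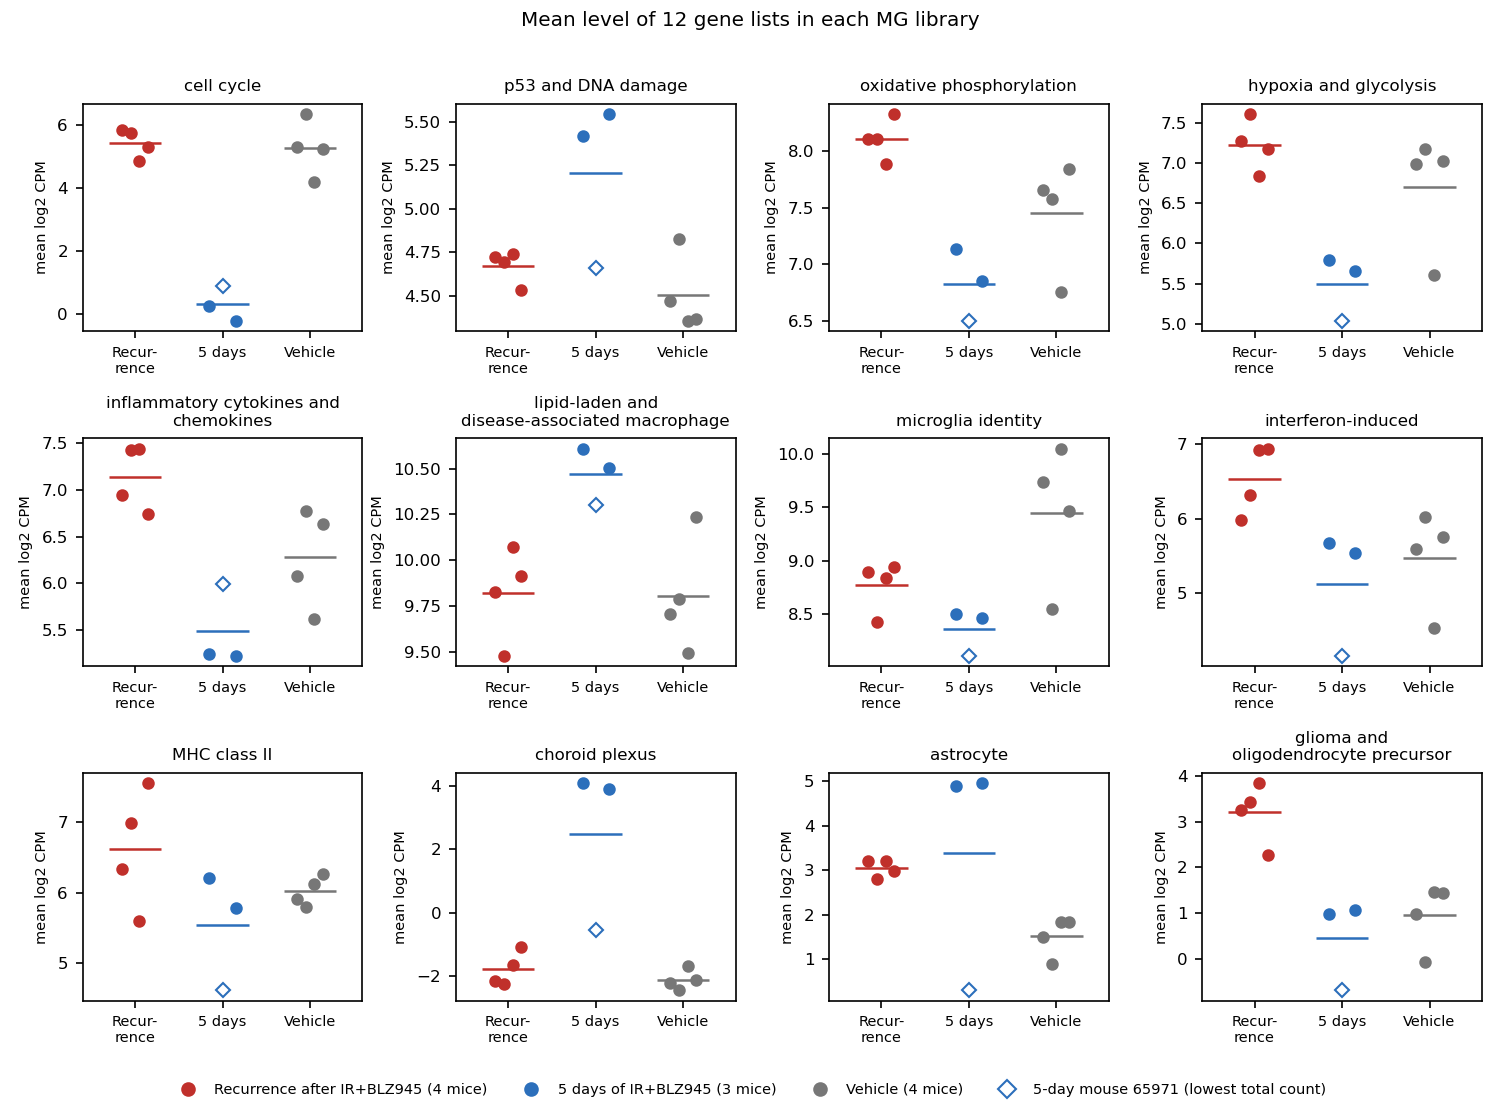
Mean log2 CPM of 12 gene lists (y axis, 1 panel a list) in each MG library, with recurrence in red, 5 days in blue and vehicle in grey; horizontal lines are group means and the open diamond is 5-day mouse 65971. The cell cycle list stood at 4.84 to 5.85 in recurrent MG, apart from -0.23 to 0.90 at 5 days, and the choroid plexus list stood out in 2 of the 3 libraries at 5 days.

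Genes of the division cycle separated the groups: 24 of 27 rose at recurrence, with a median log2 fold change of 4.66. None fell (0 at an unadjusted p below 0.05 and 0 by DESeq2, which called the same number, 24, higher). The mean level of the list was 4.84 to 5.85 log2 CPM in the 4 recurrent libraries and -0.23 to 0.90 in the 3 libraries at 5 days, and vehicle MG held 4.20 to 6.35. Without mouse 65971, 26 of 27 rose (median 5.71), and with the Malat1 minus Lars2 term 14 rose (23 at an unadjusted p below 0.05; median 4.93). The 2 vehicle libraries in which Malat1 minus Lars2 was above 0, as at 5 days, had list means of 6.35 (mouse 65966) and 4.20 (mouse 65967). The 2 below 0 had 5.30 (mouse 41) and 5.24 (mouse 78), and the part of this measure in the result was not tested. In bulk libraries, fewer dividing cells and less transcript in each cell cannot be told apart.

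Ccnb1 encodes cyclin B1, which drives entry into mitosis (chr13:100778739-100786486, mm10). It had 81.6, 98.9, 44.5 and 55.7 CPM in recurrent MG, against 0.112, 0.972 and 0 CPM in 5-day MG (log2 fold change 8.46 ± 0.93 (SE), adjusted p = 2.56e-05). Every recurrent library lay far above every 5-day one. Aurka, the kinase that builds the spindle poles (chr2:172356190-172370886), had 38.5, 44.8, 26.2 and 25.4 CPM at recurrence, against 0.224, 0 and 0.684 CPM at 5 days (6.39 ± 0.67, adjusted p = 2.24e-05). Aurkb, the kinase that corrects chromosome attachment, had 31.0, 34.8, 20.3 and 17.4 CPM at recurrence, against 0.448, 0 and 0.513 CPM at 5 days (5.98 ± 0.63, adjusted p = 2.24e-05). Neither kinase exceeded 1 CPM in any 5-day library. Tk1, the thymidine kinase of S phase (chr11:117815519-117826087), had 49.6, 70.6, 21.4 and 34.3 CPM at recurrence, against 0, 0 and 0.428 CPM at 5 days (7.71 ± 0.89, adjusted p = 3.03e-05). Ube2c, which feeds the ubiquitin ligase that ends mitosis, had 60.4, 51.5, 42.3 and 36.9 CPM at recurrence, against 0.336, 0.324 and 0.0855 CPM at 5 days (7.71 ± 1.07, adjusted p = 0.000259). The groups did not overlap for any of these genes, and vehicle MG lay near recurrence, at 21.6 to 135 CPM for Ccnb1 and 13.1 to 49.9 CPM for Aurka.

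Pcna, the sliding clamp of the replication fork, had 177, 192, 106 and 211 CPM at recurrence, against 66.8, 22.4 and 61.6 CPM at 5 days (1.76 ± 0.34, adjusted p = 0.00201). Mki67, the common proliferation marker, had 79.0, 30.3, 33.1 and 34.3 CPM at recurrence, against 7.28, 13.3 and 2.48 CPM at 5 days (2.59 ± 0.76, adjusted p = 0.0162), and mouse 67169 stood highest. The 3 members that missed the threshold were Top2a, a topoisomerase (2.13, adjusted p = 0.0765), and the kinetochore genes Cenpe (1.29, adjusted p = 0.262) and Cenpf (-0.21, adjusted p = 0.866). Top2a and Cenpf passed once mouse 65971 was left out (5.12 and 2.35).

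For 23 of the 27 cell cycle genes a promoter sequence was at hand (RefSeq, GRCm38.p6, the mm10 assembly), and the 4 shown are those of the members with the smallest p among these 23. Each is the 110 bases before the transcript start that the RefSeq table gives, 5′ to 3′ on the gene's strand (for Aurka and Tk1 that start lies inside the gene span given above), with CCAAT (or ATTGG on the other strand) and TTTGAA (or TTCAAA) in capitals. Both letter strings were chosen as the CCAAT box and the cell cycle homology element known from promoters of mitotic genes. Aurka (chr2:172370571-172370680, minus strand): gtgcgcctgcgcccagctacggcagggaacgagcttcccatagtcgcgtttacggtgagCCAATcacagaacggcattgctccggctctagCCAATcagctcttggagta Ccnb1 (chr13:100786487-100786596, minus strand): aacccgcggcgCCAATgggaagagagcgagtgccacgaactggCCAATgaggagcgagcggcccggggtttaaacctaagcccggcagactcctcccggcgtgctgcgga Tk1 (chr11:117826015-117826124, minus strand): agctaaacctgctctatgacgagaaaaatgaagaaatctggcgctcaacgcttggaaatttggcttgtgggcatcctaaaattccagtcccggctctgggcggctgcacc Ube2c (chr2:164769819-164769928, plus strand): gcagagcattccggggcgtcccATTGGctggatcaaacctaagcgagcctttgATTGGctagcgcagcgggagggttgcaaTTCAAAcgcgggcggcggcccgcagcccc CCAAT or its reverse was present in the 250 bases before the start in 19 of the 23 genes (82.6%), against 10133 of 27025 genes in the RefSeq table (37.5%). TTTGAA or its reverse was present in 9 of the 23 (39.1%), against 4934 of 27025 (18.3%). The window shown for Tk1 holds neither string.

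Targets of p53 were lower at recurrence: 8 of 25 fell and 2 rose (median log2 fold change -0.996). Without mouse 65971, 10 fell and 2 rose, and with the Malat1 minus Lars2 term 2 fell and 0 rose (4 lower and 1 higher at an unadjusted p below 0.05), with a median of -0.85. Cdkn1a, the cell cycle inhibitor p21 (chr17:29090979-29100722), had 309, 423, 307 and 170 CPM in recurrent MG, against 825, 2218 and 700 CPM in 5-day MG (-2.04 ± 0.36, adjusted p = 0.00111). Its level in vehicle MG was 146 to 233 CPM, a range that held the lowest recurrent value and lay below the other recurrent values. Phlda3, an inhibitor of Akt signalling (chr1:135766085-135769134), had 11.3, 13.9, 16.4 and 8.08 CPM at recurrence, against 59.8, 116 and 52.6 CPM at 5 days (-2.61 ± 0.43, adjusted p = 0.000703). Vehicle MG held 1.01 to 3.14 CPM of it, so recurrent MG lay between vehicle and 5 days without overlap with either, and the rise over vehicle passed too (2.66, adjusted p = 0.00609). Ccng1, cyclin G1, had 118, 97.3, 107 and 189 CPM at recurrence, against 346, 282 and 389 CPM at 5 days (-1.41 ± 0.23, adjusted p = 0.000671). Bbc3, which encodes the death protein PUMA, had 6.64, 7.57, 6.00 and 8.55 CPM at recurrence, against 30.2, 15.2 and 27.8 CPM at 5 days (-1.77 ± 0.39, adjusted p = 0.00355). For each of these 4 genes all recurrent libraries lay below all 5-day ones. Trp53inp1, Sesn2, Aen and Gdf15 also fell, by 2.20, 1.05, 1.35 and 1.65 on the log2 scale, whereas Ei24 and 9630033F20Rik rose by 0.78 and 2.08. Mdm2, the p53 inhibitor, had a log2 fold change of -1.02 (adjusted p = 0.263) and passed without mouse 65971 (-1.59, adjusted p = 0.00675).

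Energy genes rose together. Of 20 nuclear genes for oxidative phosphorylation, the respiratory chain and ATP synthase of mitochondria, 17 rose (median 1.28), and 18 did without mouse 65971. With the Malat1 minus Lars2 term none passed (3 higher and 0 lower at an unadjusted p below 0.05), and the median was 0.64; vehicle mice 65966 and 65967 had list means of 7.58 and 6.76 log2 CPM, against 6.50 to 7.13 in 5-day MG, and the part of this measure in the result was not tested. Cox5a, a subunit of cytochrome c oxidase, had 193, 186, 173 and 215 CPM in recurrent MG, against 72.0, 57.7 and 60.6 CPM in 5-day MG (1.59 ± 0.28, adjusted p = 0.000904). Ndufb8 of complex I had 430, 442, 326 and 552 CPM at recurrence, against 142, 76.5 and 128 CPM at 5 days (1.92 ± 0.39, adjusted p = 0.00238). Recurrent MG lay above 5-day MG in each library for both genes, and Sdha and Ndufs1 were among the members that did not pass (-0.19 and 0.19).

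Among 20 genes of hypoxia and glycolysis, 11 rose and 1 fell (median 1.56); without mouse 65971, 8 rose and 0 fell, and with the Malat1 minus Lars2 term 1 rose (7 at an unadjusted p below 0.05). Adm, the hypoxia-induced peptide adrenomedullin (chr7:110627657-110629820), had 46.6, 69.2, 33.2 and 69.7 CPM in recurrent MG, against 0.112, 0 and 0.513 CPM in 5-day MG (7.56 ± 1.11, adjusted p = 0.000369). Vehicle MG held 1.60 to 31.8 CPM of it, below every recurrent library but not past the test (1.53, adjusted p = 0.177). Gapdh, of glycolysis, had 1465, 2477, 1089 and 1243 CPM at recurrence, against 325, 439 and 265 CPM at 5 days (2.19 ± 0.41, adjusted p = 0.00165). Ldha, which makes lactate, had 2934, 3710, 1829 and 2996 CPM at recurrence, against 706, 731 and 592 CPM at 5 days (2.08 ± 0.42, adjusted p = 0.00244). Pkm2 (Pkm), the last enzyme of glycolysis, rose by a similar amount (2.01 ± 0.39, adjusted p = 0.00189), and the groups did not overlap for any of these enzymes. Egln3, an oxygen sensor, and Bnip3, a mitophagy receptor, rose by 2.98 and 2.02, while Pfkfb3, a regulator of glycolysis, fell by 1.06. Car9 and Vegfa, both classical hypoxia targets, had log2 fold changes of -0.70 and 0.02 and did not pass (adjusted p = 0.492 and 0.989).

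**Figure D2:**
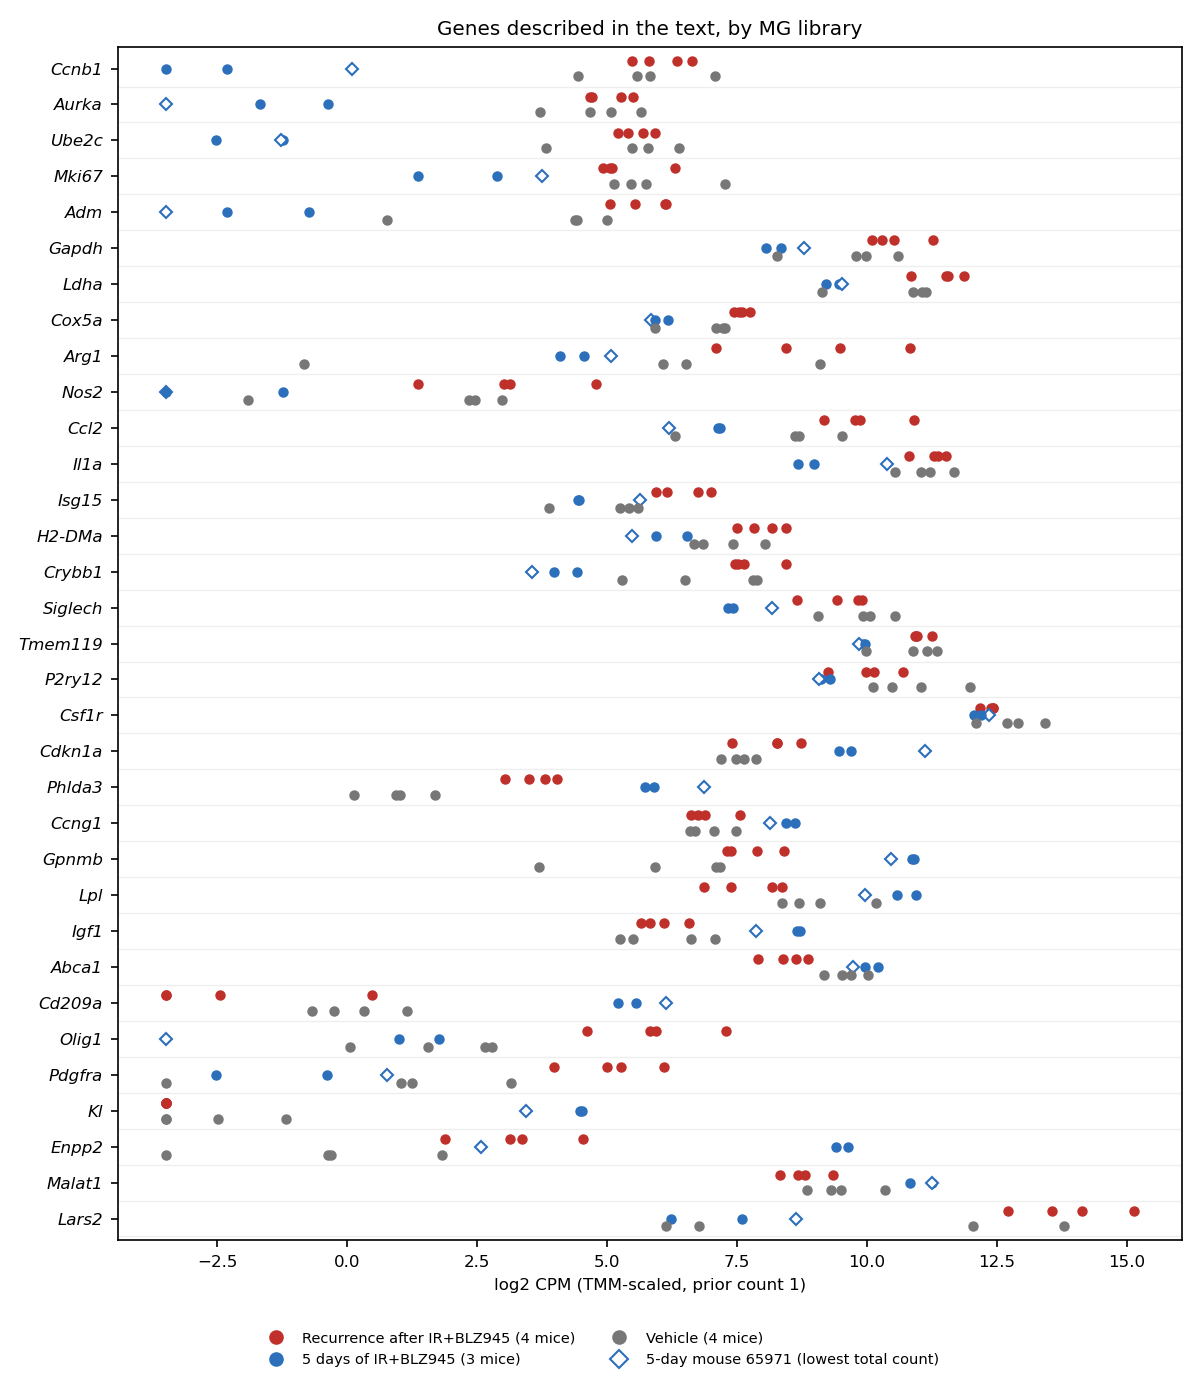
Log2 CPM (x axis) of genes described in the text (y axis) in each MG library, with recurrence in red on top, 5 days in blue in the middle and vehicle in grey; the open diamond is 5-day mouse 65971. Ccnb1 and Aurka separate recurrent from 5-day libraries with no overlap, whereas Csf1r, with 4631 to 5468 CPM at recurrence and 4265 to 5188 CPM at 5 days, overlaps.

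Of 22 genes that mark microglia, 6 rose and 2 fell (median 0.52); without mouse 65971, 5 rose and 2 fell. With the Malat1 minus Lars2 term none passed (3 higher and 1 lower at an unadjusted p below 0.05). Tmem119, a surface protein of microglia (chr5:113793729-113800396), had 1956, 2431, 2001 and 1934 CPM in recurrent MG, against 975, 919 and 1000.0 CPM in 5-day MG (1.11 ± 0.34, adjusted p = 0.0197). Crybb1, a crystallin gene expressed by microglia, had 176, 183, 198 and 345 CPM at recurrence, against 21.4, 11.7 and 15.6 CPM at 5 days (3.78 ± 0.59, adjusted p = 0.000502). Siglech, a sialic acid-binding receptor, had 910, 404, 683 and 958 CPM at recurrence, against 159, 288 and 171 CPM at 5 days (1.84 ± 0.38, adjusted p = 0.00277). All 3 markers were higher in each recurrent library than in any 5-day library, and Slc2a5, Sparc and Bin1 rose as well (1.32, 1.17 and 0.75). Tgfbr1, a receptor for TGF-beta, had 341, 198, 256 and 463 CPM at recurrence, against 904, 498 and 1062 CPM at 5 days (-1.38 ± 0.39, adjusted p = 0.0131), again without overlap. P2ry12, the ADP receptor of surveying microglia, had 1013, 605, 1116 and 1646 CPM at recurrence, against 553, 540 and 624 CPM at 5 days; the groups overlapped and the change did not pass (0.94 ± 0.36, adjusted p = 0.0582). Csf1r, the target of BLZ945, had 5462, 5364, 5468 and 4631 CPM at recurrence, against 4265, 5188 and 4644 CPM at 5 days (0.15 ± 0.25, adjusted p = 0.675). Cx3cr1, the fractalkine receptor, had a log2 fold change of -0.38 and did not pass (adjusted p = 0.376).

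Inflammatory cytokines and chemokines were higher for 6 of 20 genes (median 0.99), and for 12 without mouse 65971 (median 1.98). With the Malat1 minus Lars2 term, 1 of the 20 was lower and none higher (6 higher at an unadjusted p below 0.05). Ccl2, a chemokine for monocytes, had 580, 1913, 868 and 935 CPM in recurrent MG, against 144, 72.9 and 140 CPM in 5-day MG (3.17 ± 0.68, adjusted p = 0.00315). Il1a, interleukin 1 alpha, had 2913, 2493, 2646 and 1799 CPM at recurrence, against 405, 1333 and 505 CPM at 5 days (1.72 ± 0.38, adjusted p = 0.00368). Mouse 65971 held the highest 5-day value of Il1a, still below every recurrent library. Nos2, which makes nitric oxide, had 8.05, 27.5, 2.48 and 8.74 CPM at recurrence, against 0.336, 0 and 0 CPM at 5 days. Its 5-day libraries held 3 counts in all. The ratio of counts, pooled over each group and scaled by pooled library size, was 85.4 (95% exact interval 29.0 to 416, counting error only). Ccl7, Cxcl1 and Il18 rose by 2.68, 3.55 and 0.98. Il1b and Tnf, the main early cytokines of macrophages, gave 1.00 and 1.03 (adjusted p = 0.267 and 0.159) but passed without mouse 65971 (2.86 and 2.68, adjusted p = 0.0043 and 0.000763).

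Interferon-induced genes rose for 6 of 17 (median 0.78), and for 4 without mouse 65971. Isg15, a ubiquitin-like protein, had 61.0, 71.1, 108 and 128 CPM in recurrent MG, against 22.05, 49.6 and 21.5 CPM in 5-day MG (1.58 ± 0.43, adjusted p = 0.0108). Rtp4 had 57.9, 131, 169 and 204 CPM at recurrence, against 45.4, 42.1 and 41.5 CPM at 5 days (1.71 ± 0.49, adjusted p = 0.0141). Both genes were lowest in mouse 67169 among recurrent libraries, and neither overlapped. Ifi204, a DNA sensor, and Oas1a, an RNA sensor, rose by 1.49 and 1.47, and Ifit3 and Xaf1 by 1.21 and 2.27. Ifnb1, the gene of interferon beta itself (chr4:88522025-88522794), was among the 12 largest rises: it had 8.55, 13.6, 10.1 and 18.2 CPM at recurrence and 0 counts in all 3 libraries at 5 days, at least 99.9-fold higher against a floor of 3 counts over the 5-day group. Vehicle MG held 1.48 to 8.71 CPM of it. With the Malat1 minus Lars2 term none of the 17 passed (5 higher at an unadjusted p below 0.05), and the median was 1.48.

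Few antigen presentation genes passed, and their counts are to be read beside the shares of all genes (11.5% higher and 16.6% lower). H2-DMa, which loads peptides on MHC class II, had 287, 180, 227 and 348 CPM in recurrent MG, against 92.9, 44.7 and 61.1 CPM in 5-day MG (1.97 ± 0.48, adjusted p = 0.00644), and its partner H2-DMb1 rose by 1.17 (adjusted p = 0.0266). These were the 2 of 10 class II genes that passed (median 1.22), and H2-DMa passed also without mouse 65971; with the Malat1 minus Lars2 term none passed (0 at an unadjusted p below 0.05; median 0.76). The class II chains H2-Aa, H2-Ab1 and H2-Eb1 gave 1.30, 1.28 and 1.42 without passing (adjusted p = 0.275, 0.207 and 0.186). Of 11 class I genes tested, B2m, Psmb8 and Psmb9 rose (1.16, 0.89 and 1.27) and Tapbp fell by 0.82, and 1 of them passed without mouse 65971 and none with the Malat1 minus Lars2 term (1 lower at an unadjusted p below 0.05).

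Genes of lipid-laden and disease-associated macrophages were lower for 7 of 20 and higher for 1 (median -0.30), and 6 were lower without mouse 65971. Apoe, the main lipid carrier of the brain, had 8337, 6111, 27629 and 9818 CPM in recurrent MG, against 64383, 53143 and 57676 CPM in 5-day MG (-2.17 ± 0.60, adjusted p = 0.0124). Gpnmb, a glycoprotein of lysosome-rich phagocytes (chr6:49036518-49058182), had 236, 168, 158 and 339 CPM at recurrence, against 1851, 1407 and 1904 CPM at 5 days (-2.93 ± 0.79, adjusted p = 0.0106). Lpl, lipoprotein lipase, had 168, 117, 331 and 287 CPM at recurrence, against 1531, 989 and 1957 CPM at 5 days (-2.73 ± 0.75, adjusted p = 0.0117). All 3 genes were lower in each recurrent library than in any 5-day one. Abca1, which exports cholesterol, had 463, 399, 239 and 334 CPM at recurrence, against 996, 852 and 1186 CPM at 5 days (-1.50 ± 0.28, adjusted p = 0.00169). Cd9, Itgax and Ctsb fell by 1.11, 1.59 and 0.88, and the signalling adaptor Tyrobp rose by 1.00. Trem2, Axl and Spp1 gave -0.36, 0.07 and -0.81 and did not pass (adjusted p = 0.383, 0.938 and 0.667). With the Malat1 minus Lars2 term none of the 20 passed (4 lower at an unadjusted p below 0.05).

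Of 18 alternative activation genes 3 rose and 3 fell (median -0.56), shares near those of all genes (11.5% and 16.6%), and with the Malat1 minus Lars2 term 0 rose and 1 fell (0 and 4 at an unadjusted p below 0.05). Arg1, arginase 1, had 709, 1825, 137 and 346 CPM in recurrent MG, against 23.3, 33.7 and 16.9 CPM in 5-day MG (4.95 ± 1.61, adjusted p = 0.0266; adjusted p = 0.0798 without mouse 65971), and its recurrent values spread widely. Cd209a, a lectin (chr8:3743395-3748984), had 1.31, 0, 0.0953 and 0 CPM at recurrence, against 46.8, 69.7 and 36.9 CPM at 5 days (-7.12 ± 1.03, adjusted p = 0.000369). Igf1, a growth factor that microglia secrete, had 68.2, 56.9, 50.2 and 94.7 CPM at recurrence, against 419, 232 and 399 CPM at 5 days (-2.38 ± 0.74, adjusted p = 0.0213). Neither Cd209a nor Igf1 overlapped between the groups. Il4ra and Tgfb1 rose by 1.12 and 1.05, and the chemokine Ccl22 fell by 2.78. Mrc1, the mannose receptor, had 11.8, 7.82, 14.6 and 13.7 CPM at recurrence, against 12.98, 0 and 25.1 CPM at 5 days and did not pass (-0.12 ± 0.74, adjusted p = 0.919).

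Immediate early genes, which respond within minutes to many stimuli, depended on mouse 65971: 5 of 16 fell with it (median -0.19), whereas 6 rose and 2 fell without it (median 0.55). None of them passed with the Malat1 minus Lars2 term (0 higher and 3 lower at an unadjusted p below 0.05; median -0.81). Dusp1, a phosphatase, had 516, 844, 1231 and 1535 CPM in recurrent MG, against 3235, 4174 and 3540 CPM in 5-day MG (-1.82 ± 0.39, adjusted p = 0.003). Jun, a subunit of the AP-1 factor, had 499.9, 530, 376 and 509 CPM at recurrence, against 918, 1406 and 1358 CPM at 5 days (-1.36 ± 0.37, adjusted p = 0.0106). These were the 2 that fell in both fits, and Fos, Egr1 and Zfp36 passed with mouse 65971 and not without it. In that library the list averaged 9.59 log2 CPM, against 7.58 and 7.61 in the other 5-day libraries and 7.91 to 8.54 at recurrence.

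Among 12 complement genes C1qa and Itgam (Cd11b) rose by 0.85 and 0.86 and C3ar1, the receptor for C3a, fell by 1.14, with 728, 1162, 946 and 707 CPM at recurrence, against 2185, 1831 and 1838 CPM at 5 days (SE 0.25, adjusted p = 0.0039). Of 20 matrix genes, Mmp13, a collagenase, and Timp1, an inhibitor of such proteases, rose and Ctsk, a collagen-degrading cathepsin, fell by 3.25. Timp1 had 7.04, 5.74, 5.15 and 0.752 CPM at recurrence, against 0.336, 0 and 0 CPM at 5 days, which is a ratio of 36.0 (95% exact interval 12.1 to 176) on 3 counts at 5 days. Blood-derived macrophage genes passed for 3 of 22 (Runx3 2.67, Ifitm3 1.40 and Ahnak -2.31). Of all genes tested 28.1% passed, and none of these 3 lists held a larger share of calls. No gene of these 3 lists passed with the Malat1 minus Lars2 term; at an unadjusted p below 0.05, 1 complement gene was higher and 1 lower, 1 matrix gene was lower and 1 blood-derived macrophage gene was higher.

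Markers of cells outside the gate also differed. Of 12 choroid plexus genes, 10 fell (median -6.31, or -5.76 with genes that had no count at recurrence set to their bound); summed over the list, CPM was 7.04, 11.97, 28.2 and 25.9 at recurrence, against 1819.9, 133 and 1651.4 at 5 days and 1.83 to 6.05 in vehicle MG. Ttr, transthyretin, had 0, 0, 0.286 and 13.999 CPM at recurrence, against 1026, 7.13 and 767 CPM at 5 days (-7.37 ± 1.66, adjusted p = 0.00445). Of the 12, 1 was lower with the Malat1 minus Lars2 term (2 at an unadjusted p below 0.05; median -5.07). Mouse 65971 was low for the list (mean -0.53 log2 CPM, against 4.07 in mouse 65696 and 3.89 in mouse 67537) and overlapped with recurrence for Ttr. Most of the summed CPM of mouse 65971 came from Prlr. Counts for astrocyte, neuron and myelin genes are to be read beside the shares of all genes (11.5% higher and 16.6% lower). Of 10 astrocyte genes 3 fell and of 9 neuron genes 1 fell (Snap25, -2.35); of 7 oligodendrocyte and myelin genes 2 rose (Cnp, 0.87, and Cldn11, with no count at 5 days and at least 13.7-fold higher) and 1 fell, or 2 rose and 3 fell without mouse 65971 and 0 rose and 1 fell with the Malat1 minus Lars2 term. The gene that fell, the myelin gene Mbp, had 44.5, 37.0, 42.8 and 34.2 CPM at recurrence, against 371, 84.9 and 362 CPM at 5 days (-2.79 ± 0.38, adjusted p = 0.000213). With a term for the mean of the choroid plexus, astrocyte, neuron and myelin lists, 25 of 27 cell cycle genes were higher. So were 15 of 20 oxidative phosphorylation genes and 8 of 20 hypoxia genes, and 11 of 25 p53 genes were lower. In that fit 3071 of all 14534 genes were higher and 2584 lower, and the median of all genes was 0.43. The part of these brain cell transcripts in the changes was not tested.

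Glioma and oligodendrocyte precursor genes rose for 5 of 13 (median 1.43), for 4 without mouse 65971 and for 1 with the Malat1 minus Lars2 term (5 at an unadjusted p below 0.05; median 2.40). Olig1, a factor of the oligodendrocyte lineage, had 56.5, 61.1, 155 and 24.4 CPM in recurrent MG, against 1.90, 0 and 3.33 CPM in 5-day MG (5.19 ± 0.87, adjusted p = 0.00075). Pdgfra, the receptor through which PDGF drives these tumours, had 38.5, 31.8, 68.5 and 15.6 CPM at recurrence, against 0.672, 1.62 and 0.0855 CPM at 5 days (6.02 ± 1.24, adjusted p = 0.0026), and Sox10 rose by 3.88. Both genes were highest in mouse 67947 and lowest in mouse 68362, without overlap. Olig2 had no count in any 5-day library and was at least 54.2-fold higher at recurrence. The list summed to 142 to 472 CPM at recurrence, 85.2 to 118 CPM at 5 days and 107 to 186 CPM in vehicle MG. In vehicle MG the summed CPM of this glioma and precursor list overlapped with both other groups, and the cell cycle list averaged 4.20 to 6.35 log2 CPM. The part of tumour transcripts in the changes was not tested. Lists for T and NK cells, neutrophils, pericytes and erythroid cells had 0 calls in the edgeR test; at an unadjusted p below 0.05, 1 gene was higher and 2 lower for T and NK cells, 2 were lower for neutrophils and 1 for pericytes, and DESeq2 called 1 lower each for T and NK cells and neutrophils. The B cell gene Ms4a1, with 62.6 CPM in mouse 65971 and 0.188 CPM at most in the other 6 libraries, was the B cell gene called with all libraries. Without mouse 65971, 1 B cell gene other than Ms4a1 was called lower. The B cell list summed to 222, 65.5 and 257 CPM in 5-day mice 65696, 65971 and 67537, against 37.7 to 85.4 CPM at recurrence. Single calls were made among endothelial (Ly6c1, 4.05) and Ly6C-high monocyte genes (Plac8, 2.49), border-associated macrophage genes gave Pf4 (2.77) and Cd209f (-3.95), and dendritic cell genes gave Xcr1 (3.41) beside Siglech and Cd209a. These small counts are likewise to be read beside the shares of all genes (11.5% higher and 16.6% lower).

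**Figure D3:**
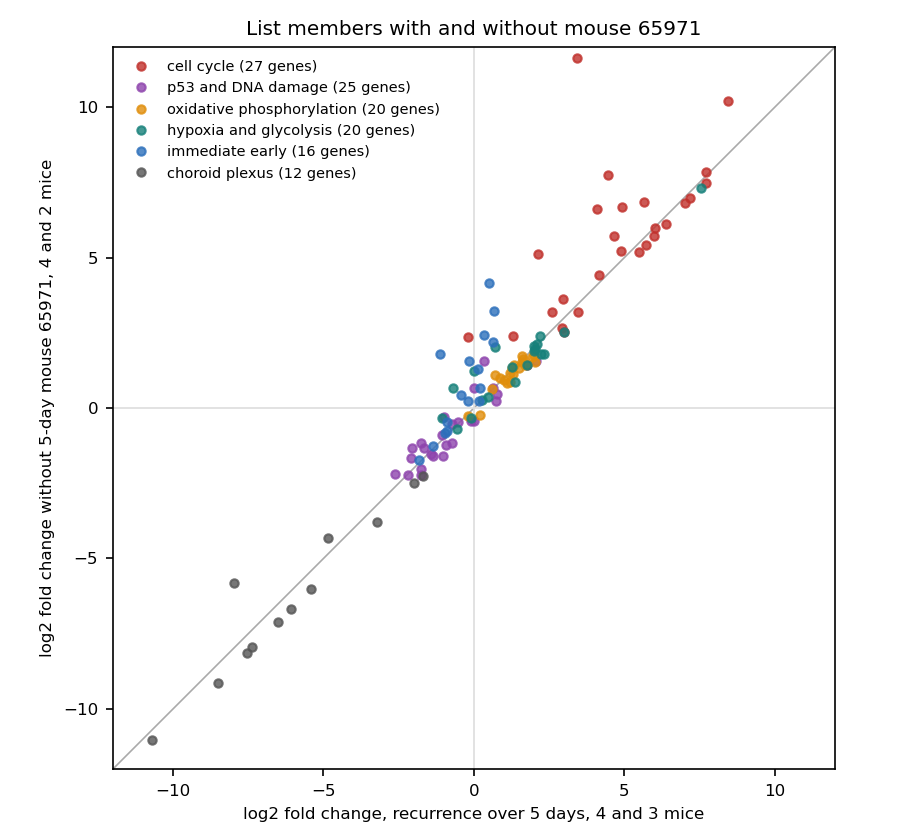
Log2 fold change of list members, recurrence over 5 days, with all 3 libraries at 5 days (x axis) and without mouse 65971 (y axis); the grey diagonal is equality. Cell cycle members lie at positive values on both axes except Cenpf (-0.21 and 2.35), and several immediate early genes lie above the diagonal.

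The 12 largest rises by the naming rule included the cell division genes Fam64a (Pimreg), Pbk, Ccnb1, Kif4, Tk1, Ube2c, Nusap1 and Cdca3. Fam64a, a regulator of the metaphase to anaphase switch, had 22.4, 27.6, 11.6 and 20.6 CPM in recurrent MG and no count at 5 days, at least 159-fold higher. Pbk, a mitotic kinase, had 106, 81.8, 48.2 and 93.8 CPM at recurrence, against 0, 0.324 and 0.0855 CPM at 5 days, a ratio of 975 (95% exact interval 269.7 to 8055) on 2 counts. The histone gene Hist1h1b and Lhfpl3, a membrane protein gene, completed the set with Adm and Ifnb1, and Lhfpl3 (9.86, 6.23, 29.4 and 7.14 CPM, against 0.112, 0 and 0 CPM) was also higher than in vehicle MG (3.68, adjusted p = 0.0144). Among the 12 largest falls, Kl, the anti-ageing factor Klotho that choroid plexus makes, had no count at recurrence, against 22.3, 10.7 and 22.8 CPM at 5 days, at least 275-fold lower. Emr4 (Adgre4), an adhesion receptor of mouse macrophages, had no count at recurrence, against 3.13, 25.9 and 7.78 CPM at 5 days, at least 109.8-fold lower. F5, coagulation factor V, had 0.101, 0.244, 0.0953 and 0 CPM at recurrence, against 19.8, 10.05 and 20.5 CPM at 5 days (-7.19 ± 1.36, adjusted p = 0.00169). Maob and Mcoln3 also held in each 5-day library, with -6.46 and -6.03. For Prlr, Lepr, Fat4, Nrip3, Syne1 and Aplnr the 5-day value was highest in mouse 65971, with 104, 45.4, 93.3, 67.1, 61.3 and 67.7 CPM, and Aplnr did not pass without it (adjusted p = 0.154).

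Against vehicle MG, 701 genes passed at recurrence (4.82%; 297 higher, 2.04%, and 404 lower, 2.78%), and 1953 passed at 5 days (13.4%; 1388 higher, 9.55%, and 565 lower, 3.89%). Both comparisons share the 4 vehicle libraries, so they are set side by side only. No cell cycle gene passed between recurrence and vehicle by edgeR or DESeq2 (1 higher at an unadjusted p below 0.05; median 0.03), whereas 23 of 27 were lower at 5 days than in vehicle MG (median -4.58; 26 without mouse 65971 and MG 68344 and 65698). For p53 targets, 4 were higher and 2 lower at recurrence than in vehicle MG, and 9 were higher at 5 days. Interferon-induced genes were higher than in vehicle MG for 4 of 17 at recurrence, namely Isg15, Rtp4, Ifit3 and Oas1a (1.36, 1.75, 1.52 and 1.51). Glioma and precursor genes were higher for 5 of 13 at recurrence, and microglia genes lower for 2 of 22 at recurrence and for 11 at 5 days. The count at recurrence ranged over 53 to 1245 when 1 library was left out, being 53 without recurrent mouse 67947 and 1245 without vehicle mouse 78; it was 73 without vehicle mouse 65967. The count at 5 days was 382 without vehicle mouse 41, 577 without vehicle mouse 65966, 1227 without vehicle mouse 78 and 1161 without mouse 65971.

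To ask what the combination adds, the change was set against that after IR alone and after BLZ945 alone in the same fit, where 2 mice stood for 5 days of IR and 2 for recurrence after BLZ945. Of 14534 genes, 24 changed differently from IR alone (0.165%), 14 of them more upward (0.0963%) and 10 more downward (0.0688%), and 267 changed differently from BLZ945 alone (1.84%), 57 more upward (0.392%) and 210 more downward (1.44%). These counts were unstable when 1 library was left out: the count against IR was 0 without 5-day mouse 65696, recurrent mouse 68362 or IR mouse 68344, 68345 or 68346, and 186 without mouse 65971. The count against BLZ945 was 8 without BLZ945 mouse 70696, 41 without recurrent mouse 67169 and 548 without 5-day mouse 67537. Against IR alone, 4 microglia genes, P2ry12, Tmem119, Crybb1 and Selplg, changed more upward (7 of 22 without MG of mice 65971, 65698 and 68344). P2ry12 had 605 to 1646 CPM at recurrence and 540 to 624 CPM at 5 days of the combination, against 740.5 to 1079.6 CPM at recurrence and 2914 to 5599 CPM at 5 days of IR (difference of changes 3.17 ± 0.54, adjusted p = 0.0247). At 5 days P2ry12 was thus lower in the combination than after IR, and Tmem119 was too (919 to 1000.0 CPM, against 2157 to 4198 CPM); 1 of the 2 IR mice at 5 days, 65698, was left out in that alternative. MG and BMDM of mouse 65698 had opposite sex-linked profiles, Xist in MG and Y-linked transcripts in BMDM, as did no other of the 23 mice, and 8 genes differed from IR alone without its MG library. No cell cycle gene passed that test by edgeR (2 higher and 7 lower at an unadjusted p below 0.05; DESeq2 called 1 higher and 2 lower).

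Against BLZ945 alone, 4 cell cycle genes (Ccnb1, Aurka, Aurkb and Tk1) changed more upward and 4 p53 targets (Cdkn1a, Phlda3, Eda2r and Ccng1) more downward. Ccnb1 had 3.93 to 15.7 CPM at 5 days of BLZ945 alone, below the vehicle range given above. Recurrence after BLZ945 alone had 59.1 to 80.9 CPM. At 5 days of the combination Ccnb1 had at most 0.972 CPM (difference 5.48 ± 1.16, adjusted p = 0.0235). Phlda3 had 11.9 to 19.7 CPM at recurrence and 0.655 to 2.76 CPM at 5 days of BLZ945 alone, the opposite order to the combination (difference -6.09 ± 0.66, adjusted p = 9.13e-05). Cdkn1a followed the same pattern, with 275 to 395 CPM at recurrence and 72.1 to 162 CPM at 5 days of BLZ945 alone (difference -3.72 ± 0.54, adjusted p = 0.00324). After IR alone, Cdkn1a had 360 to 505 CPM at recurrence and 2079 to 3268 CPM at 5 days, and the difference from the combination did not pass (0.48, adjusted p = 0.695). Siglech, Gpr34, Crybb1, Gpr56 and Sparc, all microglia markers, changed more upward than after BLZ945 alone (2.66, 2.54, 3.23, 2.66 and 2.39).

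The BMDM of the same 7 mice allowed the change to be set against that of blood-derived cells: 158 of 15901 genes differed (0.994%; 106 with a more upward change in MG, 0.667%, and 52 more downward, 0.327%), and in BMDM alone 850 genes passed (5.35%; 445 higher, 2.8%, and 405 lower, 2.55%). The count was 392 without 6 libraries (MG of 65971 and 68344, BMDM of 122 and 124, and both of 65698) and 81 without recurrent BMDM 67947, and it was 200 with the mouse as a replicate block. Cell cycle genes rose further in MG for 6 of 27 (14 without those libraries), namely Ccnb1, Ube2c, Aurka, Aurkb, Tk1 and Cdc20. Ccnb1 had 79.5, 65.8, 49.6 and 64.7 CPM in recurrent BMDM, against 4.13, 21.3 and 4.50 CPM in 5-day BMDM, a change of 2.71 ± 0.64 that was smaller than in MG (difference 5.84 ± 1.11, adjusted p = 0.00469). Recurrent levels overlapped between the populations, and the 5-day levels were lower in MG. For MHC class II, 4 of 10 genes (H2-DMa, H2-DMb1, H2-Oa and H2-Ob) changed more upward in MG. H2-Ob, a regulator of peptide loading, had 31.2, 18.1, 57.8 and 42.0 CPM in recurrent MG, against 32.6, 0 and 19.5 CPM in 5-day MG, and 37.5, 38.3, 39.2 and 59.3 CPM in recurrent BMDM, against 205, 269.9 and 210 CPM in 5-day BMDM (difference 3.56 ± 0.72, adjusted p = 0.00906). Cx3cr1 and Tgfbr1 changed more downward in MG (-2.37 and -2.49) and Selplg more upward (1.81). Cx3cr1 had 897, 554, 1064 and 798 CPM in recurrent BMDM, against 216, 113 and 243 CPM in 5-day BMDM, and the BMDM rise passed (2.12 ± 0.43, adjusted p = 0.00326). Tmem119 rose in BMDM as well, to 859, 622, 813 and 477 CPM at recurrence, against 72.1, 40.8 and 104 CPM at 5 days (3.26 ± 0.52, adjusted p = 0.000213), and the difference from MG did not pass (-2.02, adjusted p = 0.12). C3ar1 and Abca1, which fell in MG, changed more downward than in BMDM (-1.88 and -2.67). The p53 targets Cdkn1a, Ccng1 and Phlda3 fell in BMDM too (-1.41, -1.37 and -3.98).

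**Figure D4:**
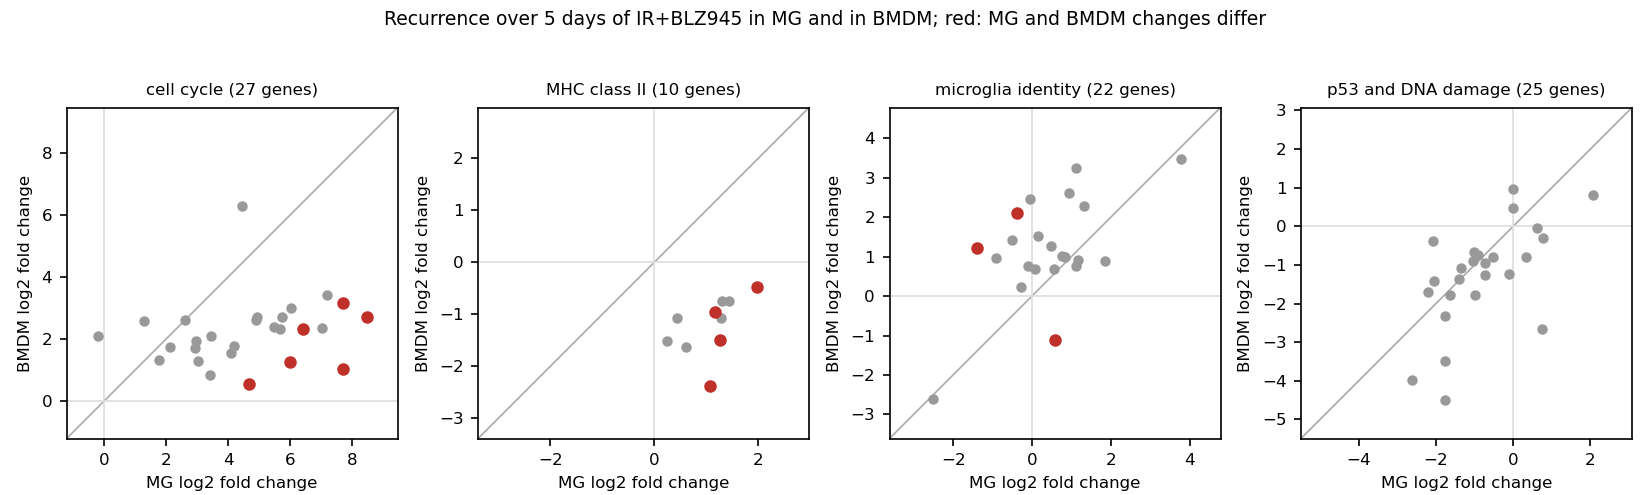
Log2 fold change, recurrence over 5 days of IR+BLZ945, of list members in MG (x axis) and in BMDM of the same mice (y axis); red points are genes whose changes differ at an adjusted p below 0.05 and the diagonal is equality. The 6 red cell cycle genes and 4 red MHC class II genes lie on the MG side of the diagonal.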

How the data were processed

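RNA was taken from sorted cells with TriZOL and made into libraries with a Smart-Seq kit, per the labels' protocols; CASAVA 1.8, STAR 2.5.0e, HTSeq, DESeq2 and the mm10 build are named in the submitters' processing notes, and the annotation and strand setting are not given in the sources used here. The authors deposited raw read counts per gene symbol (23329 symbols), which were used as deposited. The 7 libraries held 3007379 to 11816214 counts, and 99.95% of the MG counts lay in genes kept.

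edgeR 4.0.16 (R 4.3.3, limma 3.58.1) was fitted once over the 23 MG libraries in their 7 groups (TMM scaling, filterByExpr with a minimum count of 10 and a total of 15, robust quasi-likelihood test, 16 residual degrees of freedom), and once over all 46 libraries for MG against BMDM. Benjamini-Hochberg adjustment ran over all genes tested and the threshold was 0.05. Standard errors are the absolute log2 fold change divided by the square root of F, log2 CPM has a prior count of 1, and intervals and floors (3 counts over a group) cover counting error only. Ratios with an exact interval compare counts pooled over each group and scaled by pooled library size, so they differ from ratios of mean CPM. MG and BMDM of a mouse come from the same animal by label, though their sex-linked transcripts were opposite in mouse 65698; deviations of the pairs from their group means correlated at -0.09 to 0.44, above 0.1 in 13 of 23 mice.

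Named genes were the 12 largest rises and 12 largest falls among genes past the threshold, without overlap and averaging 3 log2 CPM or more in a group, up to 4 members with the smallest p of each list, 4 genes each way per difference of changes, and a fixed set of markers; other members are named as examples chosen after their values were seen. Members and lists were chosen with earlier results of these data known. Of 402 list genes, 394 matched by symbol, 5 by synonym and 3 did not match. Alternatives were DESeq2 1.42.0, RLE size factors, no filter, other sample sets, leaving out libraries, a replicate block, and terms for sex, Malat1 minus Lars2 and brain cell lists. Some results are not reported here.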

Additional observations from a re-analysis of the deposited data

Results flagged for a closer look

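In 11 of 142 tests on the 4 recurrent MG libraries 1 library lay far from the other 3, where chance gives about 1 in 20. Mouse 68362 was highest for Prlr (-0.61 log2 CPM, against -3.48 in the others), Il18 (6.07, against 5.16 to 5.24) and Cd3e (-1.85, against -3.48), and lowest for Timp1 (-0.25, against 2.39 to 2.83) and Csf1r (12.18, against 12.39 to 12.42). Mouse 67543 was lowest for C1qa (12.83, against 13.17 to 13.19) and Ptprc (7.62, against 8.36 to 8.48) and highest for Tmem119 (11.25, against 10.92 to 10.97) and Cd209f (-1.58, against -3.48). For Prlr, Cd3e and Cd209f the other 3 libraries had no count, so these results rest on whether any read was seen. Mouse 67947 was lowest for Jun (8.55, against 8.97 to 9.05), and mouse 67169 highest for Mki67 (6.30, against 4.92 to 5.10).

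The change after IR+BLZ945 differed from that after IR alone, by edgeR's test of the difference on the log2 scale, for Crybb1 (4.53), P2ry12 (3.17), Thrsp (3.15), Tmem119 (2.53), Enpp2 (-8.89) and Dnm1 (-6.36). From the change after BLZ945 alone it differed for Mrc2 (10.13) and Enpp2 (-10.83). Enpp2 is on the choroid plexus list, whose other members were also high in 5-day mice 65696 and 67537; the part of those transcripts in its difference was not tested.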

How the results depend on the processing

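The count between recurrence and 5 days (4077) was 3257 to 4803 with DESeq2, RLE size factors, no filter or one fit over all libraries, the last with 1582 genes lower; it was 995 (623 higher, 372 lower) in a fit of only these groups, and 158 (87 higher, 71 lower) with the Malat1 minus Lars2 term, under which Tgfb1, C1qa and Lars2 turned to -0.60, -0.37 and -0.71. A term for the brain cell lists gave 3071 genes higher and turned Aldoc to 1.78 and Mrc1 to 2.67. Lars2 enters the Malat1 minus Lars2 term and Aldoc the brain cell term, so the turns of Lars2 and Aldoc are partly built in. Without 6 libraries doubted from earlier results (MG 65971, MG 68344, BMDM 122 and 124, both of 65698), Ms4a1 turned to 3.01 (adjusted p = 0.409). Those exclusions gave 110 genes for the difference from IR alone, 538 from BLZ945 alone, 2126 for recurrence against vehicle, 1153 for 5 days against vehicle and 392 against BMDM. DESeq2 gave 634, 891, 1698 and 704 for the difference from IR alone, from BLZ945 alone, recurrence against vehicle and the difference from BMDM, and RLE gave 9 from IR alone. Leaving out 1 library gave 2879 to 3944 genes between recurrence and 5 days (1382 to 1679 higher, 1489 to 2438 lower; 1489 without 67543 and 1497 without 68362), 0 to 186 from IR alone, 8 to 548 from BLZ945 alone, 53 to 1245 for recurrence against vehicle, 382 to 2619 for 5 days against vehicle and 81 to 207 against BMDM (81 without BMDM 67947). The mouse as a replicate block gave 200 genes against 158 for MG against BMDM. A term for the sex-linked profile gave 3755 genes between recurrence and 5 days (1604 higher, 2151 lower). With that term 24 cell cycle genes and 9 interferon-induced genes were higher. Alternative activation genes gave 0 higher and 1 lower, and 6 choroid plexus genes were lower. Of 113 named genes, 113 kept direction and side of the threshold with RLE and 35 with the Malat1 minus Lars2 term, where 74 no longer passed; the causes were not tested. Low depth of mouse 65971 limits genes of low count at 5 days.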
